A study of Gallus gallus with 32 samples.

Results

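The genes described here are those of the vasotocin and mesotocin system of the chicken and of 2 transcription factors of the neurons that make these hormones. They were picked by name and identifier, with earlier results of these data known, and are 6 of the 24881 genes in the count table. AVP (ENSGALG00000014117) encodes the precursor of arginine vasotocin, the bird counterpart of vasopressin, and OXT (ENSGALG00000019026) that of mesotocin, the bird counterpart of oxytocin. AVPR1A (ENSGALG00000040567) and AVPR1B (ENSGALG00000000788) encode receptors for these peptides, and SIM1 (ENSGALG00000015466) and OTP (ENSGALG00000026744) the transcription factors. The deposited tables carry no symbol for the AVP and OXT rows. OXT was named from the study's own gene list, and AVP from its place beside OXT between MRPS26 and UBOX5, an order that the RefSeq annotation of GRCg7b also has.

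Libraries were made from hypothalamus and pituitary RNA of the same 16 male Ross 308 broilers, a fast-growing chicken line kept for meat. Birds were sorted by body mass after the second week into a heavier group with a high growth rate (HGR) and a lighter group with a low growth rate (LGR), and 4 birds of each were taken at 3 weeks and 4 at 6 weeks of age. A replicate number names the same bird in both tissues. The day label of the samples reads 22 or 42, whereas the sample titles carry 14 or 28, and the ages used here follow the day label. Both growth groups had the same line, diets and housing, but they were kept in separate pens, so that growth rate and pen cannot be told apart. Starter, grower and finisher feeds were given in turn as the birds aged, and the ages were sampled on different days. Age therefore cannot be told apart from feed or day of sampling. Nothing in the labels says that the birds of a group came from separate hatches, and the p-values measure the spread between these birds. Total counts were 13845756 to 17536175 per hypothalamus library and 6231478 to 18256297 per pituitary library, the lowest being LGR replicate 4 of 3 weeks. The paper left out 3 hypothalamus samples, from both ages, because clustering set them apart from their groups. All 16 hypothalamus libraries were kept here. Each tissue bore its own markers. All 7 anterior pituitary genes that were found were higher in the pituitary, and all 6 peptide genes of the paraventricular nucleus were higher in the hypothalamus.

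Vasotocin and mesotocin are made in large neurons of the paraventricular and supraoptic nuclei of the hypothalamus, whose axons run to the posterior lobe of the pituitary and release the peptides into the blood. Vasotocin restrains water loss and, together with corticotropin-releasing hormone, drives corticotrophs of the anterior lobe, on which AVPR1B sits. In the mouse, SIM1 and OTP are needed for these neurons to form. All levels below are counts per 1000000 (CPM) on the TMM scale of each tissue, and "called" means a fold change of at least 1.5 with an adjusted p (Benjamini-Hochberg, over all genes tested) of 0.05 or less in edgeR's quasi-likelihood test. In whole tissue, fewer cells of a type and less RNA per cell cannot be told apart.

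AVP lies on chromosome 4 at 89222770 to 89224343 and OXT beside it at 89219041 to 89220542, with 2227 bases between them. The receptor genes are on chromosome 1 (AVPR1A, 33298676 to 33301273) and chromosome 26 (AVPR1B, 2366153 to 2368135). SIM1 spans 71185380 to 71225432 on chromosome 3, and OTP 23139185 to 23144944 on chromosome Z. These positions are those of the deposited tables, which name no genome build, and each covers a whole protein-coding gene with its exons and introns. AVP and OXT share a conserved neurophysin-coding stretch, and how the alignment divided reads between them was not tested.

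The first question was how far each transcript belonged to the hypothalamus or to the pituitary. AVP, OXT, SIM1 and OTP were hypothalamic, AVPR1B was found almost wholly in the pituitary and AVPR1A was found in both, somewhat higher in the pituitary. AVP had 836501 counts over the 16 hypothalamus libraries and 389 over the 16 pituitary libraries, and OXT 218344 and 162. Relative to all pooled counts the hypothalamus held 2144 times as much AVP (95% interval 1941 to 2374) and 1344 times as much OXT (1152 to 1577) as the pituitary. These intervals and the ones that follow are exact and cover counting error alone.

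AVPR1B gave 71611 counts in the pituitary and 9 in the hypothalamus, where 10 of 16 libraries had none. The pooled ratio was 7981 in favour of the pituitary (95% interval 4204 to 17453). SIM1 had 1694 counts in the hypothalamus and 6 in the pituitary, a pooled ratio of 281 (129 to 767). OTP was less sharply divided, with 4838 and 105 counts and a ratio of 45.9 (37.9 to 56.2). AVPR1A was read 2495 times in the pituitary and 968 times in the hypothalamus, a ratio of 2.59 (2.43 to 2.76), and its fitted log2 difference between the tissues was 1.3 ± 0.19 (SE, adjusted p = 4.41e-07, edgeR). All 6 genes passed the test between the tissues, in which 53.5% of the 16169 genes tested were called.

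The second question was whether the hormone genes differed between slow and fast growers. In the hypothalamus at 3 weeks both precursors were lower in every LGR bird than in any HGR bird, and the LGR birds differed widely among themselves. AVP stood at 4191, 3685, 2537 and 3453 CPM in HGR replicates 1 to 4. In LGR replicates 1 to 4 it stood at 1532, 21.7, 27.9 and 526 CPM. Thus LGR replicates 2 and 3 held hardly any vasotocin transcript, while replicate 1 came nearest to the HGR birds.

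The counts behind these low values were 362 and 423 reads of AVP in LGR replicates 2 and 3, so that depth did not limit them. OXT was again lower in the LGR birds. It was 927, 1705, 576 and 837 CPM in the HGR birds and 492, 11.4, 6.80 and 301 CPM in the LGR birds. The same pair of LGR birds was lowest for both hormones, and again the groups did not overlap.

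**Figure D1:**
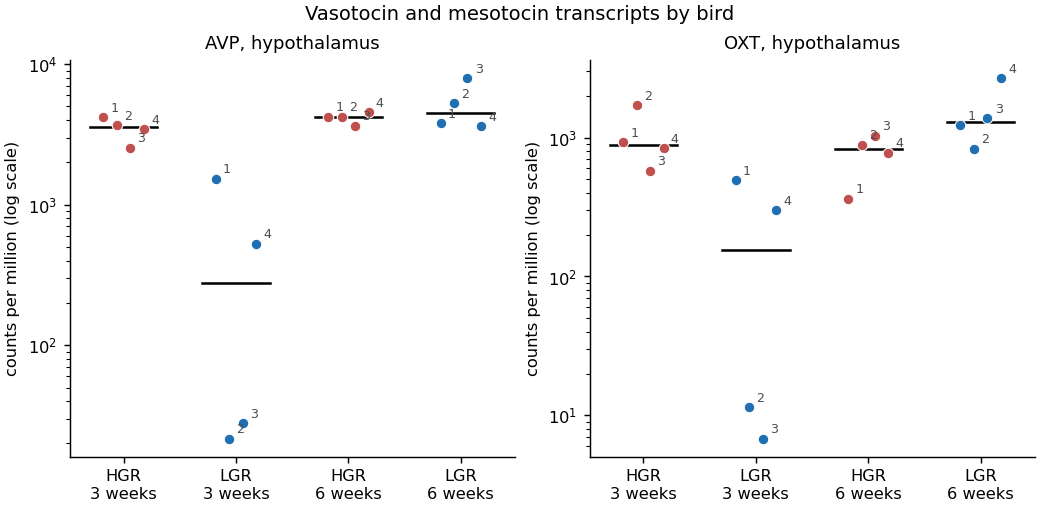
CPM of AVP and OXT in the hypothalamus, on a log axis, for each bird (point, numbered by replicate) of the 4 groups, with the group median as a line. The 4 LGR birds of 3 weeks spread from 21.7 to 1532 CPM for AVP and lie below all 12 other birds, whereas for OXT replicate 1 of 6-week-old HGR birds (363 CPM) lies among them.

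Group means of AVP were 3467 ± 692 CPM in HGR and 527 ± 711 in LGR (SD, n = 4 each). Those of OXT were 1011 ± 486 and 203 ± 237. The fitted log2 difference, LGR less HGR, was −2.72 ± 1.08 for AVP (SE, adjusted p = 0.855, edgeR) and −2.32 ± 1.07 for OXT (adjusted p = 0.856, edgeR), and neither was called. On the mean of log2 CPM, which gives each bird the same weight, the difference was −4.52 for AVP and −3.99 for OXT. The exact two-sided permutation test on these log values gave p = 0.0286 for each, the smallest value that 4 against 4 birds can give.

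Of the 14980 genes tested in this comparison 0% were called by edgeR, 5.81% had an unadjusted p under 0.05, and DESeq2 called 21 genes, none of them among the 6. LGR birds all lay below HGR birds for 1.27% of genes. Leaving out LGR replicate 1 moved the AVP difference to −4.18 and that of OXT to −3.25. Without LGR replicates 2 and 3 it was −1.77 for AVP and −1.36 for OXT (adjusted p = 0.551 for each, edgeR), a step added after their values were seen.

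SIM1, the transcription factor that marks the paraventricular lineage, was lower in the same birds by less. It was 4.83, 8.81, 5.50 and 8.39 CPM in 3-week-old HGR and 4.48, 2.64, 3.77 and 2.92 CPM in LGR birds. The groups did not touch, with LGR replicate 1 just under the lowest HGR bird. The log2 difference was −1.01 ± 0.26 (SE, p = 0.0031, adjusted p = 0.773, edgeR; exact permutation p = 0.0286). Of the 5 members tested SIM1 therefore had the smallest p, while AVP had the largest difference.

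OTP, which in the mouse lies upstream of the same neurons, showed no such gap. Its level was 23.0, 21.8, 20.6 and 17.6 CPM in HGR and 19.0, 14.3, 20.7 and 17.1 CPM in LGR birds of 3 weeks. These ranges overlapped, with a log2 difference of −0.23 ± 0.14 (SE, adjusted p = 0.881, edgeR). AVPR1A in the hypothalamus was 4.21, 3.94, 4.72 and 3.41 CPM in HGR and 3.89, 2.10, 2.58 and 2.43 CPM in LGR birds. Replicate 1 of LGR lay inside the HGR range and the other LGR birds under it, and the log2 difference was −0.58 ± 0.24 (SE, adjusted p = 0.855, edgeR). The groups overlapped for OTP and AVPR1A and not for AVP, OXT and SIM1.

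Other genes differed across the same birds, and their part in the result was not tested. SIM2, the close relative of SIM1, was 3.9, 4.44, 4.11 and 3.76 CPM in HGR and 3.23, 0.719, 1.45 and 1.74 CPM in LGR birds of 3 weeks. As with AVP, replicate 1 was the highest LGR bird and replicate 2 the lowest.

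Markers of the tuberal hypothalamus were the higher in LGR birds. Over the 7 genes found of a list of 9, which holds TBX3, NKX2-1 and POMC, the summed level was 79.6 to 250 CPM in HGR and 316 to 462 CPM in LGR birds. This sum is not one of tuberal tissue alone. Of its genes, POMC was 417 times and NR5A1 14.4 times higher in the pituitary than in the hypothalamus. How far pituitary transcripts entered the sum was not tested. All 7 had a positive log2 difference and none was called. The summed level of 7 preoptic markers was 69.5 to 78.6 CPM in HGR and 65.7 to 68.9 CPM in LGR birds, which did not overlap. Summed CPM of 7 anterior pituitary genes in the same hypothalamus libraries was 26.4 to 218 in HGR and 138 to 636 in LGR birds. HCRT and NPVF, peptide genes of other hypothalamic neurons, were at 3.29 and 23.8 CPM in LGR replicate 2. In the remaining LGR birds they were at 97.6 and 149 CPM or more, and the lowest HGR value of HCRT was 104 CPM. Both were picked, after their values were seen, from a list of hypothalamic peptides of which 7 were found. By group their log2 differences were 0.13 and 0.10. On the same list PMCH (1.22), GHRH (1.09) and NPY (0.47) were higher in LGR birds. TRH (−0.79) and CRH (−0.87) were lower, and none of the list was called.

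At 6 weeks the order of the groups was not that of 3 weeks. AVP was 4215, 4224, 3642 and 4562 CPM in HGR and 3785, 5253, 7959 and 3622 CPM in LGR birds. No LGR bird was low, and the highest AVP level of all libraries was that of LGR replicate 3. The log2 difference was 0.31 ± 0.22 (SE, adjusted p = 0.503, edgeR).

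OXT at 6 weeks was 363, 888, 1033 and 779 CPM in HGR and 1230, 829, 1377 and 2682 CPM in LGR birds. All 4 LGR birds were above the HGR mean on the log scale, the ranges overlapped, and the log2 difference was 1.00 ± 0.38 (SE, p = 0.0256, adjusted p = 0.207, edgeR; exact permutation p = 0.0857). SIM1 was 8.74, 8.72, 5.90 and 6.97 CPM in HGR and 8.09, 8.81, 10.9 and 8.69 CPM in LGR birds, with a log2 difference of 0.27 ± 0.16 (SE, adjusted p = 0.394, edgeR). Neither gene was called.

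OTP was the gene of the set whose groups parted at 6 weeks. It was 16.4, 18.2, 14.8 and 12 CPM in HGR and 19.1, 20.9, 26.2 and 28.1 CPM in LGR birds, so that every LGR bird was above every HGR bird. The log2 difference was 0.62 ± 0.15 (SE, p = 0.00248, adjusted p = 0.0911, edgeR; exact permutation p = 0.0286), which did not pass. DESeq2 gave an adjusted p of 0.00857 and called OTP, beside 1.12% of all genes. edgeR called 0.134% of the 14944 genes tested, none of the 6, and LGR birds lay wholly above HGR birds for 5.37% of genes. AVPR1A was 2.87, 4.97, 3.28 and 5.18 CPM in HGR and 3.64, 3.86, 5.14 and 5.64 CPM in LGR birds, which overlapped (log2 difference 0.16 ± 0.24, SE, adjusted p = 0.767, edgeR).

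Markers of neighbouring regions differed between the same 6-week-old birds, and their part in the OTP and OXT values was not tested. Of 5 thalamic genes found of a list of 6, TCF7L2 (log2 difference −2.36, adjusted p = 0.0338, edgeR) and GBX2 (−2.71, adjusted p = 0.0261, edgeR), both transcription factors of the thalamus, were called lower in LGR birds. The summed level of the 5 was 605 to 766 CPM in HGR and 381 to 476 CPM in LGR birds, which did not overlap. That of 7 preoptic markers was 72.1 to 76.2 CPM in HGR and 80.1 to 91.8 CPM in LGR birds, also without overlap, and none of the 7 was called. The order of the preoptic sums was thus the reverse of that at 3 weeks.

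**Figure D2:**
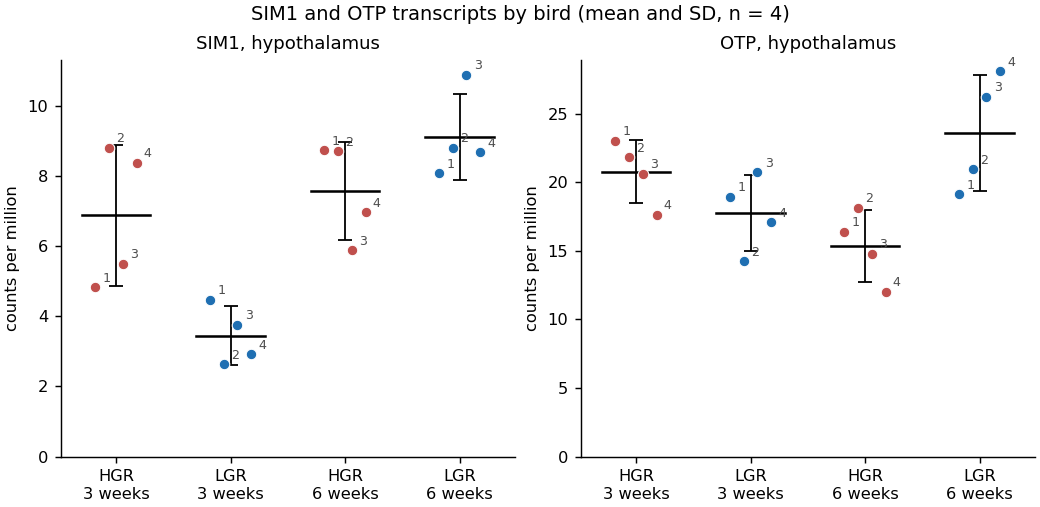
CPM of SIM1 and OTP in the hypothalamus for each bird (point, numbered by replicate), with the mean and SD of the 4 birds of a group. SIM1 of 3-week-old LGR birds spans 2.64 to 4.48 CPM, below all other birds, and OTP of 6-week-old LGR birds spans 19.1 to 28.1 CPM, above the 6-week-old HGR birds.

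Between 3 and 6 weeks the transcript that passed the test was SIM1. Averaged over both growth groups it rose by 0.77 ± 0.15 on the log2 scale (SE, adjusted p = 0.0285, edgeR), and 0.260% of the 15414 genes tested were called in this direction. AVP had a log2 difference of 1.78 ± 0.61 (SE, adjusted p = 0.1, edgeR), OXT 1.26 ± 0.62 (adjusted p = 0.228, edgeR), AVPR1A 0.37 ± 0.17 (adjusted p = 0.194, edgeR) and OTP −0.01 ± 0.11 (adjusted p = 0.954, edgeR). None of these was called.

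Taken by growth group, SIM1 was called with age in LGR birds alone and not in HGR birds alone. In LGR birds alone SIM1 was 1.41 ± 0.22 higher on the log2 scale at 6 than at 3 weeks (SE, adjusted p = 0.00809, edgeR; 0.642% of genes called), and all 4 birds of 6 weeks were above all 4 of 3 weeks. The same was true of AVP (3.29, adjusted p = 0.0707, edgeR) and OXT (2.92, adjusted p = 0.0939, edgeR), neither of which was called. The older LGR birds lay wholly above the younger ones for 8.36% of genes.

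HGR birds alone gave log2 differences of 0.14 for SIM1 (adjusted p = 0.925, edgeR), −0.40 for OXT (adjusted p = 0.948, edgeR) and −0.44 for OTP, and their ranges at the 2 ages overlapped for every one of these genes. No gene of 15414 was called in HGR birds. AVP in HGR birds was 0.28 higher at 6 weeks on the mean of log2 CPM (exact permutation p = 0.143), and its ranges overlapped. The split by growth group was made after the values were seen. The difference between the growth groups in their change with age, tested as an interaction, was 1.27 ± 0.31 for SIM1 (SE, adjusted p = 0.498, edgeR), 3.03 ± 1.20 for AVP, 3.32 ± 1.25 for OXT and 0.85 ± 0.22 for OTP (adjusted p = 0.505, edgeR). None of the members passed, and 0.00649% of genes were called. Leaving out 1 bird moved the interaction of AVP from 2.63 (without LGR replicate 3 of 3 weeks) to 4.47 (without LGR replicate 1 of 3 weeks), and that of OXT from 2.90 to 4.23 without the same birds. Limma with quality weights gave 5.61 for AVP and 6.20 for OXT, not called either.

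The call of SIM1 with age was lost in 4 of 16 fits that left out 1 bird. These were the fits without HGR replicate 3 of 3 weeks (adjusted p = 0.0544, edgeR), without HGR replicate 2 (0.0618) or replicate 4 (0.0556) of 6 weeks, and without LGR replicate 2 of 6 weeks (0.0558). AVP was called in 1 of those fits, without LGR replicate 1 of 3 weeks (log2 difference 2.49, adjusted p = 0.0403, edgeR; 0.579% of genes called). It was also called without LGR replicates 2 and 3 of 3 weeks, the birds left out after their low AVP was seen (1.28, adjusted p = 0.015, edgeR; 2.18% of genes called), and under limma with quality weights (3.11, adjusted p = 0.00595; 1.42% of genes called), which called OXT as well.

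**Figure D3:**
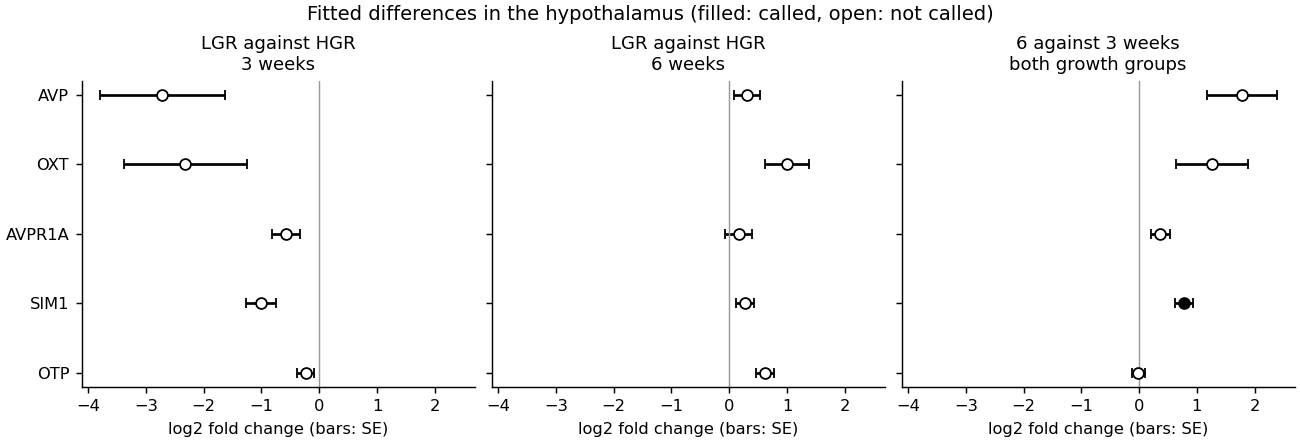
Log2 fold changes with their standard errors in the hypothalamus for AVP, OXT, AVPR1A, SIM1 and OTP, in LGR against HGR birds at 3 weeks and at 6 weeks and in 6-week-old against 3-week-old birds. Filled points passed the test, which only SIM1 with age did, and at 3 weeks all 5 values lie below 0, from −0.23 for OTP to −2.72 for AVP.

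The balance of the hormones within a bird was compared as the ratio of AVP to OXT counts, which is not a ratio of molecules since it takes no account of transcript length. It was 4.52, 2.16, 4.41 and 4.13 in 3-week-old HGR birds and 3.11, 1.90, 4.11 and 1.75 in LGR birds. So the ratio in LGR replicates 2 and 3 was within or close to the HGR range although both transcripts were scarce there. At 6 weeks it was 11.6, 4.76, 3.52 and 5.86 in HGR and 3.08, 6.34, 5.78 and 1.35 in LGR birds. The growth groups overlapped at both ages (exact permutation p = 0.171 at 3 weeks and 0.343 at 6 weeks).

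Over the 16 hypothalami AVP and OXT had a Pearson r of 0.951 on log2 CPM (permutation p = 0.00012, adjusted over 10 pairs of members 0.0012) and a Spearman rho of 0.515 (permutation p = 0.0436, adjusted 0.0726). The relation rested on the 3-week-old LGR birds. Without the 2 birds farthest from the AVP median r was 0.590, and in the 12 birds outside that group it was 0.131 (permutation p = 0.674) with a rho of −0.0909. With the mean of each group taken off, r over 16 birds was 0.899 (permutation p = 8.0e-05, adjusted 0.0008). The rho was then 0.579 (permutation p = 0.0217, adjusted 0.155). The 3-week-old LGR birds, which differed most among themselves, weigh most in the r of 0.899 too. Without the 2 birds farthest from the median AVP deviation that r was 0.824. AVP and SIM1 had an r of 0.807 over 16 birds (permutation p = 0.00033, adjusted 0.00153), 0.552 in the 12 birds (permutation p = 0.0634) and 0.321 once the mean of each group was taken off. AVP and SIM1 were thus low in the same group, and within groups the relation between AVP and SIM1 did not hold up.

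The genes whose hypothalamic level was most like that of AVP after taking off group means, among 9982 genes with a symbol over 16 libraries, were UQCR10 (Pearson r of 0.900), OXT (0.899), PRDX1 (0.895) and LGI1 (0.879). For OXT they were MRPL32 (0.910), LGI1 (0.903), MED24 (0.902), AVP (0.899) and ACOT13 (0.892). On levels with group differences left in, a measure added later, AVP was nearest to OXT (0.951), FP (0.919), RXFP3 (0.915), CRTAC1 (0.907) and SIM2 (0.897). Of these, OXT alone stood on both lists for AVP. On levels the r with AVP was −0.056 for UQCR10, 0.041 for PRDX1 and 0.019 for LGI1. With OXT it was −0.063 for MRPL32, 0.113 for LGI1, 0.296 for MED24 and 0.595 for ACOT13. Log2 AVP and OXT varied most among the 3-week-old LGR birds, which therefore weigh most in the r with group means taken off.

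SIM1 within groups was most like ZBTB7A (Pearson r of 0.837), PROSER1 (0.819), SPATA18 (0.811), DESI1 (0.785) and NPY2R (0.773). On levels these r values were −0.175, 0.311, 0.215, 0.711 and 0.784 in that order. OTP was most like OPRL1 (0.915), DNMT3A (0.906), PDYN (0.894), SLIT1 (0.854) and VIP (0.853), of which PDYN and VIP encode neuropeptides and OPRL1 an opioid-like receptor. With 16 libraries and so many genes these are descriptions of which genes went together.

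Genes of the paraventricular nucleus were taken from lists. Of 5 transcription factors found (SIM1, OTP, POU3F2, ARNT2 and SIM2), none was called between the growth groups. SIM1 and OTP are members and are described above, and SIM2 values at 3 weeks were given above after they were seen. The log2 difference at 3 weeks was −0.21 for POU3F2, −0.24 for ARNT2 and −1.20 for SIM2, against a median of 0.00 over all genes. At 6 weeks it was 0.29, 0.19 and 0.49 in that order, against 0.01. Of the 5 factors SIM1 alone was called with age. Of 6 peptide genes none was called at either age between the groups, with 4 of 6 differences negative at 3 weeks and 4 of 6 positive at 6 weeks. TRH, which encodes thyrotropin-releasing hormone and is also made in the paraventricular nucleus, was 62.0, 79.3, 54.3 and 51.7 CPM in HGR and 60.2, 11, 33.2 and 39.6 CPM in LGR birds of 3 weeks. It had its lowest value in LGR replicate 2, where AVP was lowest too.

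Genes that process the hormone precursors differed little. Of 7 found, none was called between the growth groups in either tissue or age, and at 3 weeks in the hypothalamus all 7 differences were negative with a median of only −0.05. PCSK1, a convertase that cuts hormone precursors, was called with age in the hypothalamus (log2 difference 0.72 ± 0.11, SE, adjusted p = 0.0043, edgeR). None of the genes found for osmotic regulation (6) or of those for signalling downstream of the receptors (12, of which 11 were tested in the hypothalamus and 12 in the pituitary) was called between the growth groups, nor with age in either tissue. AVPR2 and OXTR, further receptors of these peptides, had no symbol in the tables and were not analysed here.

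In the pituitary the receptors were the members with the most reads in sum. AVPR1B had 1591 to 7269 reads a library and AVPR1A had 13 to 317. AVPR1B, the corticotroph receptor, was 273, 366, 256 and 270 CPM in HGR and 366, 184, 420 and 644 CPM in LGR birds of 3 weeks. At 6 weeks it was 97.0, 188, 156 and 335 CPM in HGR and 206, 261, 275 and 513 CPM in LGR birds. LGR means were the higher at both ages (404 ± 189 against 291 ± 50.4 CPM and 314 ± 136 against 194 ± 101 CPM, SD, n = 4), but the ranges overlapped and the log2 differences of 0.47 ± 0.33 (SE, adjusted p = 0.963, edgeR) and 0.69 ± 0.38 (adjusted p = 0.769, edgeR) were not called.

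AVPR1A in the pituitary was 7.28, 8.15, 11.2 and 17.5 CPM in HGR and 8.02, 2.94, 14.9 and 3.07 CPM in LGR birds of 3 weeks. At 6 weeks it was 7.74, 9.02, 4.96 and 6.94 CPM in HGR and 7.65, 14.6, 18.1 and 11.1 CPM in LGR birds. The younger groups overlapped widely (log2 difference −0.57 ± 0.53, SE, adjusted p = 0.963, edgeR). The low values of LGR replicates 2 and 4 of 3 weeks rested on 45 and 13 reads. In the older birds 3 of the LGR values lay above the HGR range and replicate 1 within it, with a log2 difference of 0.84 ± 0.27 (SE, p = 0.0127, adjusted p = 0.66, edgeR; exact permutation p = 0.0857). At neither age was any gene of the pituitary called between the growth groups (0% of 14730 and 0% of 14826 by edgeR, with 2.62% and 6.77% at an unadjusted p under 0.05; 6 and 45 genes by DESeq2, none of them a member).

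**Figure D4:**
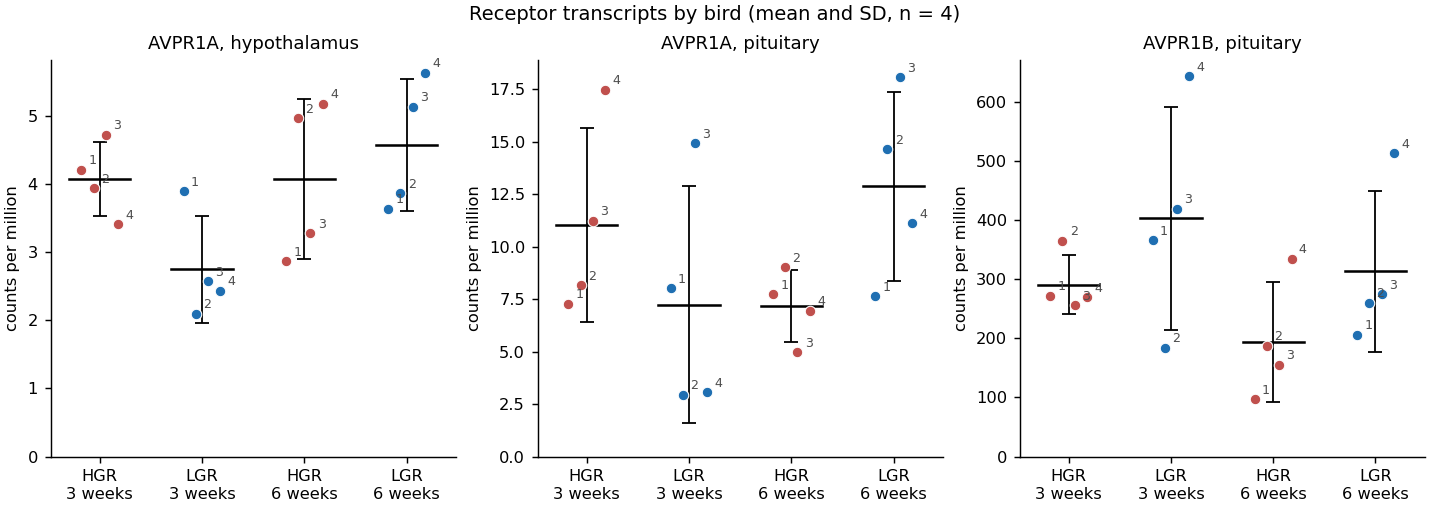
CPM of AVPR1A in the hypothalamus and of AVPR1A and AVPR1B in the pituitary for each bird (point, numbered by replicate), with the mean and SD of the 4 birds of a group. The growth groups overlap in every panel at both ages, and AVPR1B is highest in LGR replicate 4 of 3 weeks (644 CPM), the library with the lowest total count. As an unscaled share of the library it is 0.0437% there and highest in LGR replicate 4 of 6 weeks (0.0493%).

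With age neither receptor passed in the pituitary (log2 difference of 6 against 3 weeks −0.47 ± 0.27 for AVPR1B, SE, adjusted p = 0.517, edgeR, and 0.08 ± 0.31 for AVPR1A, adjusted p = 0.922; 0.0262% of 15280 genes called). AVPR1B followed POMC, the hormone precursor of corticotrophs, from bird to bird. The r on log2 CPM over 16 pituitaries was 0.726 (permutation p = 0.00118, adjusted over 3 pairs 0.00354) with a rho of 0.774 (permutation p = 0.00069, adjusted 0.00207). It was 0.793 with group means taken off, and 0.723 without the 2 birds farthest from the AVPR1B median. With TBX19, the transcription factor of corticotrophs, r was 0.366 (permutation p = 0.163), and with AVPR1A 0.065 (permutation p = 0.811). These 3 pairs were chosen after the values were seen. Both genes of a pair carry the same TMM scaling of the library, and its part in r was not tested. POMC itself stood at 26359 to 108173 CPM in these libraries.

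AVP and OXT transcripts in the pituitary were few and uneven. In 5 libraries AVP was 1.44 CPM (HGR replicate 3 of 3 weeks), 3.10 (LGR replicate 3 of 3 weeks), 5.07 and 3.72 (HGR replicates 3 and 4 of 6 weeks) and 6.49 (LGR replicate 1 of 6 weeks). In the 11 others it was 0 to 0.642 CPM. The same 5 libraries were highest for OXT, at 0.83, 0.970, 1.65, 0.816 and 4.18 CPM in that order, against 0 to 0.449 CPM in the others.

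NKX2-1, which is expressed in the ventral hypothalamus and in the neural lobe of the pituitary, was highest in these 5 libraries too. Its level was 4.81, 3.62, 5.07, 4.44 and 6.16 CPM in the same order and 0 to 0.706 CPM in the 11 others. GHRH, a peptide gene of the hypothalamus, was at 36.0 CPM in LGR replicate 1 and 16.2 CPM in HGR replicate 4 of 6 weeks and at 2.05 CPM or less elsewhere, and OTP reached its pituitary maximum of 1.87 CPM in that LGR library. What these genes have to do with the AVP and OXT reads of the pituitary was not tested.

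**Figure D5:**
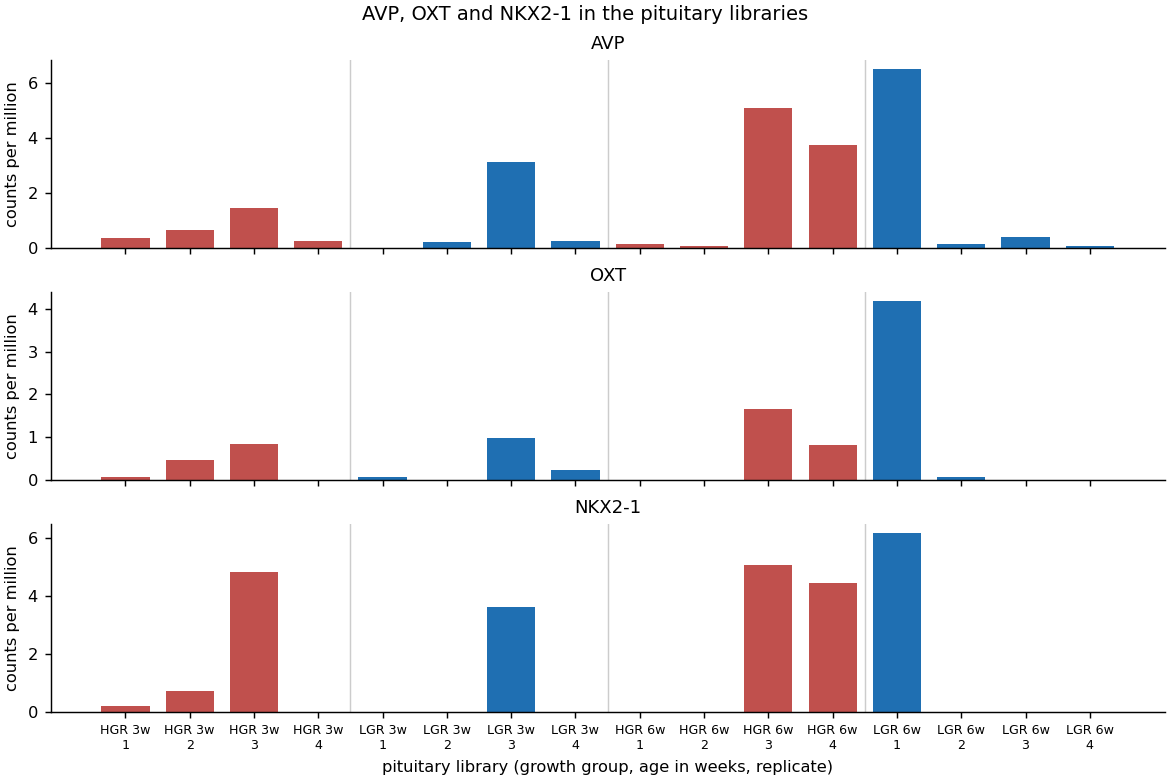
CPM of AVP, OXT and NKX2-1 in each of the 16 pituitary libraries (bars from 0, HGR in red and LGR in blue), ordered by age, growth group and replicate. The same 5 libraries hold the highest values of all 3 genes, with AVP from 1.44 to 6.49 CPM there and at most 0.642 CPM in the rest.

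AVP, OXT, SIM1 and OTP were removed by the expression filter in the pituitary comparisons of growth groups. For pituitary AVP the exact permutation p was 0.657 in the younger and 0.971 in the older birds, with the LGR and HGR ranges overlapping. No relation between the pituitary and hypothalamic levels of the same birds was detected. For AVP r was −0.060 over 16 birds (permutation p = 0.853) and rho 0.029, and for OXT r was −0.022 (permutation p = 0.936). LGR replicates 2 and 3 of 3 weeks, lowest for AVP in the hypothalamus, had 0.196 and 3.10 CPM of AVP in the pituitary.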

How the data were processed

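RNA of the hypothalamus and the pituitary of 16 cockerels was sequenced from libraries that do not mark the strand. Per the submitters' processing notes and the paper's methods, reads were processed with CASAVA 1.8.2, FastQC and Flexbar and aligned and counted with RSEM. The pituitary is not described in those methods. The authors deposited raw counts of reads, as whole numbers for each Ensembl gene. Their result tables of both tissues hold fold changes and p-values of their own comparisons, which were not used, and gene symbols with start and end positions (other values, as deposited), which were. Symbols were found for 10132 of 24881 genes. All sample columns of the count table were assigned, by the bird code in the labels. Sequences of the members were not used here.

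Counts were fitted with edgeR 4.0.16 in R 4.3.3 (TMM scaling; filterByExpr at 10 counts, 15 in total; quasi-likelihood test; Benjamini-Hochberg adjustment over all genes tested). Growth groups were compared within each tissue and age, ages and the interaction over the 16 libraries of a tissue, and tissues over all 32. Log2 CPM had a prior count of 2. Single values of 4 against 4 birds were compared by an exact two-sided permutation test, and correlations by 100000 permutations with scipy 1.17.1. The fits were tested on simulated data. Alternatives were DESeq2 1.42.0, limma 3.58.1 (voomWithQualityWeights), RLE scaling, no filter, a replicate block, a single fit of a tissue and leaving out each bird. Some values are not reported here. The members and gene lists were chosen with earlier results of these data known. Every member is named, and from the lists every called gene up to 4 a list. The SIM2, TRH, HCRT, NPVF, NKX2-1, GHRH, POMC and TBX19 values were chosen after they were seen. Differences of PMCH, NPY and CRH are given to stand beside those of HCRT and NPVF.

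Depth was 6231478 to 18256297 counts a library, so that a gene with 9 counts over 16 libraries, such as AVPR1B in the hypothalamus, has only the precision of its counting interval (95%, exact). Libraries of 1 group differed by more than counting noise in all 48 pairs (chi-square per gene of 8.14 or more). Both tissues of a bird share its code, and their deviations from group means had r of 0.108 to 0.536 over 16 birds; the bird as a block changed no member's call between the tissues.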

Additional observations from a re-analysis of the deposited data

Results flagged for a closer look

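OXT in the pituitary of LGR replicate 1 of 6 weeks, at 4.18 CPM (76 counts), lay far from the other 3 birds of its group, which had 0 to 0.0654 CPM. The gap on the log2 scale was 0.882 of the whole range of the group. Of 39 groups of 4 birds tested in this way 1 was marked, and chance marks about 1 in 20. The same library had the highest AVP (6.49 CPM), OTP (1.87 CPM), NKX2-1 (6.16 CPM) and GHRH (36.0 CPM) of the pituitaries, and their part in the OXT value was not tested.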

How the results depend on the processing

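Of 234 member values under settings other than leaving out 1 bird, 226 kept their sign and their side of the threshold. The exceptions at 6 weeks and with age for OTP, AVP and SIM1 are given with those results. In addition OXT with age was −0.40 in HGR birds alone, OTP with age 0.41 in LGR birds alone, and the pituitary interaction of AVP 1.22 with limma's quality weights. Members called with age in the hypothalamus numbered 3 with limma, 2 without LGR replicates 2 and 3 of 3 weeks and 0 in HGR birds alone, and at 6 weeks DESeq2 called 1. The cause was not tested.

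Counts of all genes called moved more. DESeq2 called 21 and 168 between growth groups in the hypothalamus at 3 and 6 weeks, 6 and 45 in the pituitary, 199 and 164 with age, and 23 and 27 for the interactions of the hypothalamus and pituitary. Limma with quality weights called 3 and 1 between growth groups in the pituitary, 219 and 107 with age and 7 for the hypothalamic interaction. A single fit of the 16 hypothalami gave 4 and 0 between growth groups. No filter gave 63 with age and 2 for the interaction in the hypothalamus, HGR birds alone 0 with age, and leaving out LGR replicates 2 and 3 of 3 weeks 344.

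Numbers shared by HGR and LGR replicates name different birds, and deviations of same-numbered birds had r of −0.213 to 0.179. With the replicate block 3 genes were called at 6 weeks in the hypothalamus, 1 with age in the pituitary and 0 for the hypothalamic interaction. The block moved the 3-week difference of AVP to −4.51 (adjusted p = 0.916, edgeR) and of OXT to −3.87, limma's quality weights moved them to −5.26 and −5.20, and the block changed no member's call.

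Leaving out 1 bird gave 0 to 1 genes called at 3 weeks and 0 to 24 at 6 weeks between hypothalamic growth groups, 0 to 1 at each age in the pituitary, 27 to 354 (members 0 to 2) with age in the hypothalamus, 0 to 26 in the pituitary, and 0 to 8 and 0 to 2 for the interactions. OTP with age ran from −0.0601 to 0.0374 in the hypothalamus. In the pituitary AVP with age ran from −0.22 to 2.85, OXT from −1.28 to 2.51 and AVPR1A from −0.0644 to 0.39, and the interaction from −3.93 to 2.21 for AVP, −4.28 to 3.30 for OXT and −0.13 to 0.63 for AVPR1B. AVP and OXT with age were below 0 in the pituitary without LGR replicate 1 of 6 weeks. With 4 birds a group and 0 called genes in most comparisons of growth groups, differences the size of those of OTP or AVPR1A were not called.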
